A study of Mus musculus with 4 samples.

Results

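Sostdc1 was described here in CD4 T cells by the β-chain V gene of their receptor, by the size of their clonotype and by their Foxp3 status. It is 1 of 32285 genes in the count table, and it was selected on its measured UMI level, which was high in Vβ3 and Vβ20 cells of these same mice, so its own levels are given as a description without a test. The genes set beside it in tests below were not used in that choice, unless this is said. Sostdc1 (also called ectodin or Wise) encodes a secreted protein related to sclerostin that binds bone morphogenetic proteins (BMPs) and keeps them from their receptors, and that binds Lrp co-receptors and so changes Wnt signalling. It is best known from tooth and kidney. In mice it is also a product of follicular helper T cells (Tfh), the CD4 T cells that help B cells in germinal centres, and it has been reported there to favour the formation of follicular regulatory T cells.

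The cells came from a transfer of magnetic-column purified CD4 T cells, 5000000 in number, from the spleens of 2 B6.H2g7 donor mice. They went into 2 NOD.Rag1null hosts, which have no T or B cells of their own. Spleens were taken 14 days later and living CD4+ TCRβ+ cells were sorted. Each host, called mouse 1 and mouse 2, yielded a 5′ transcriptome library and a library of receptor contigs. There was no untransferred or otherwise treated group, so every comparison is between kinds of cells in the same 2 hosts: Vβ3 cells, whose β-chain uses TRBV26, Vβ20 cells, whose β-chain uses TRBV23, and cells with neither. The series is about Vβ3 cells, an endogenous mouse mammary tumour virus and type 1 diabetes. The labels give an age of 6 to 8 weeks for all samples and do not say whether it is that of the donors or the hosts. They also do not say whether the cells of the donors were pooled, so the spread between the mice may be partly technical.

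Kept cells had at least 500 genes, at most 10% mitochondrial UMIs (unique molecular identifiers, each standing for 1 captured RNA molecule) and exactly 1 β-chain contig. These were 5993 cells in mouse 1 and 6332 cells in mouse 2, with 38725969 and 44796902 UMIs and medians of 5596 and 6220 UMIs per cell. The mice shared 58 kept barcode sequences, 0.968% of those of mouse 1. Sostdc1 had 7957 UMIs in 1011 cells of mouse 1 and 7420 UMIs in 1034 cells of mouse 2. The kept cells read as T cells in every class, with a Cd3e UMI in 98.4% to 99.3% of cells, and Cd8a, which marks CD8 T cells, had no UMI, while its partner Cd8b1 had a UMI in 4.61% to 5.74% of cells over the classes and mice. Sostdc1 (ENSMUSG00000036169) lies on the forward strand of chromosome 12 at 36314139 to 36318452 (GRCm38). It has 2 exons of 360 and 1421 bases and 206 codons before the stop, and the stretch from the stop codon to the end of the second exon is 1008 bases.

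Vβ3 and Vβ20 cells carried about the same high level of Sostdc1, and no other V gene reached it in both mice. The level was 338 CPM (UMIs of the gene per 1000000 UMIs of the summed cells) in mouse 1 and 247 CPM in mouse 2 for Vβ3 cells, 301 and 283 CPM for Vβ20 cells, against 90.5 and 102 CPM for cells with neither. Vβ3 cells thus stood 3.74-fold and 2.41-fold above cells with neither, and Vβ20 cells 3.33-fold and 2.76-fold above them. Vβ3 was above Vβ20 in mouse 1 and below it in mouse 2, by 0.17 and -0.19 on the log2 scale. The share of cells with at least 1 Sostdc1 UMI moved with the level: 24.9% and 24.4% of 2084 and 1960 Vβ3 cells, 25.4% and 29.1% of 959 and 725 Vβ20 cells, against 8.41% and 9.43% of 2950 and 3647 cells with neither. With every cell thinned to 3000 UMIs, which left out 591 and 335 shallower cells, these shares were 22.5% and 20.7% for Vβ3, 22.1% and 25.3% for Vβ20, against 6.43% and 7.51% for neither.

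**Figure D1:**
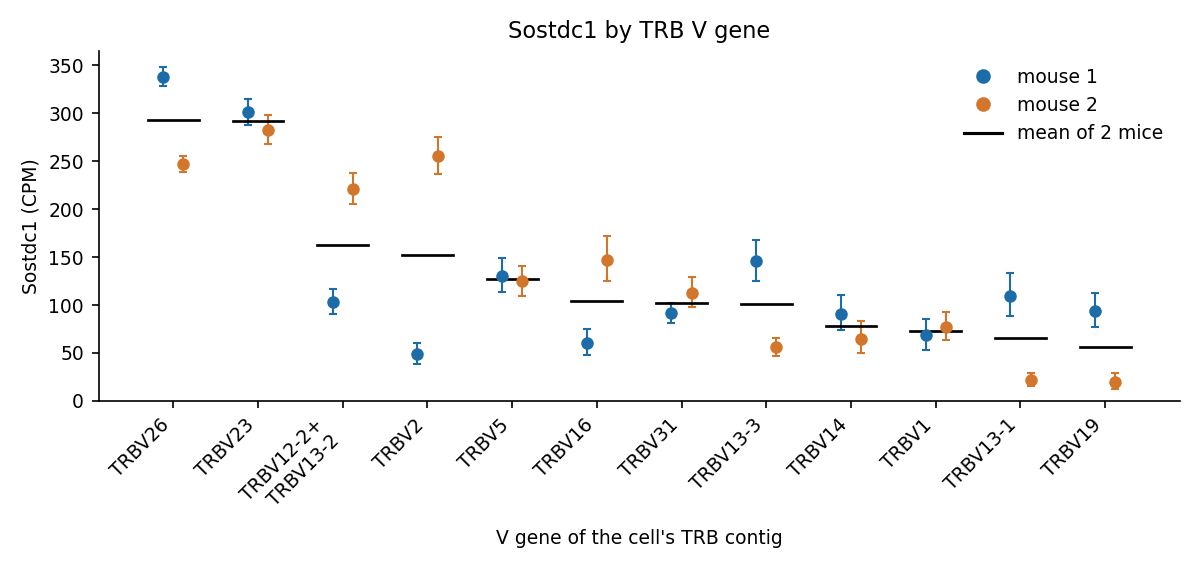
Sostdc1 level (CPM of summed UMIs) for the 12 TRB V genes with at least 100 kept cells in each mouse; points are the 2 mice with exact 95% Poisson intervals, which cover counting error only, and bars are means over the mice. TRBV26 and TRBV23 average 293 and 292 CPM, and no mouse is below 247 CPM for either, while TRBV2 has 48.6 CPM in mouse 1 and 255 CPM in mouse 2.

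Among the 12 V genes with at least 100 kept cells in each mouse, TRBV26 averaged 293 ± 64.5 CPM and TRBV23 292 ± 13.3 CPM (SD, n = 2). The next was the call TRBV12-2+TRBV13-2, with 162 ± 83.3 CPM (SD, n = 2), and the lowest was TRBV19 with 56.5 ± 52.6 CPM (SD, n = 2). The step below TRBV23 was the only one in this order across which the ranges of the mice did not overlap. The other 10 V genes had a median of 92.6 CPM in mouse 1 and 95.04 CPM in mouse 2. Their highest value, 255 CPM for TRBV2 in mouse 2, came from 1 clonotype of 103 cells that held 632 of the UMIs, 91.1% of that V gene's total there. Without that clonotype TRBV2 stood at 30.5 CPM in mouse 2, close to its 48.6 CPM in mouse 1. When each V gene lost its clonotype richest in Sostdc1, TRBV26 kept 330 and 243 CPM and TRBV23 kept 294 and 282 CPM. The highest of the other 10 was then 103 CPM in mouse 1 (TRBV5) and 157 CPM in mouse 2 (TRBV12-2+TRBV13-2).

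Within each class most Sostdc1 sat in a minority of strongly positive cells. Positive Vβ3 cells had a median of 5 Sostdc1 UMIs in mouse 1 and 4 in mouse 2, with a highest value of 62 and 41. Cells with at least 10 UMIs made up 29.7% and 26.9% of the positive Vβ3 cells and held 67.9% and 62.6% of the class's Sostdc1 UMIs. Positive cells with neither V gene were a smaller share of their class, but were alike at the upper end. Their medians were 3 and 4 UMIs, their maxima 62 and 45, and 27.4% and 30.2% of them had at least 10 UMIs. More of them had just 1 Sostdc1 UMI, 33.9% and 29.1%, against 18.7% and 18.4% of positive Vβ3 cells. The variance of UMIs per cell was 15.7 and 12.2 times the mean in Vβ3 cells, 13.8 and 9.87 times in Vβ20 cells, and 18.7 and 17.0 times in cells with neither.

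Clonotype size went with Sostdc1 in opposite directions in the classes. A clonotype is taken as all kept cells of a mouse with the same β-chain V gene, J gene and CDR3 nucleotides, the CDR3 being the stretch where V, D and J are joined and which is unlike between clones. Vβ3 cells that were alone in their clonotype had 427 and 286 CPM in mouse 1 and mouse 2, those in clonotypes of 2 to 4 cells 296 and 225 CPM, those in clonotypes of 5 to 19 cells 197 and 118.5 CPM, and those in clonotypes of 20 or more 43.7 and 118 CPM. Few Vβ3 clonotypes had 20 or more cells. In mouse 2 it was only the largest, with 59 cells. In mouse 1 they had 36, 24 and 20 cells, and in the last of these 18 cells had a Foxp3 UMI. In Vβ20 cells the first 3 sizes had 440.5 and 369 CPM, 268 and 199 CPM, and 37.9 and 32.0 CPM. The only Vβ20 clonotype of 20 or more cells, 42 cells in mouse 2, stood at 296 CPM. Among cells with neither V gene the cells alone were the lowest, with 46.4 and 41.7 CPM for cells alone, 138 and 88.8 CPM at 2 to 4 cells, 127 and 205 CPM at 5 to 19 cells, and 78.9 and 124 CPM at 20 or more.

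**Figure D2:**
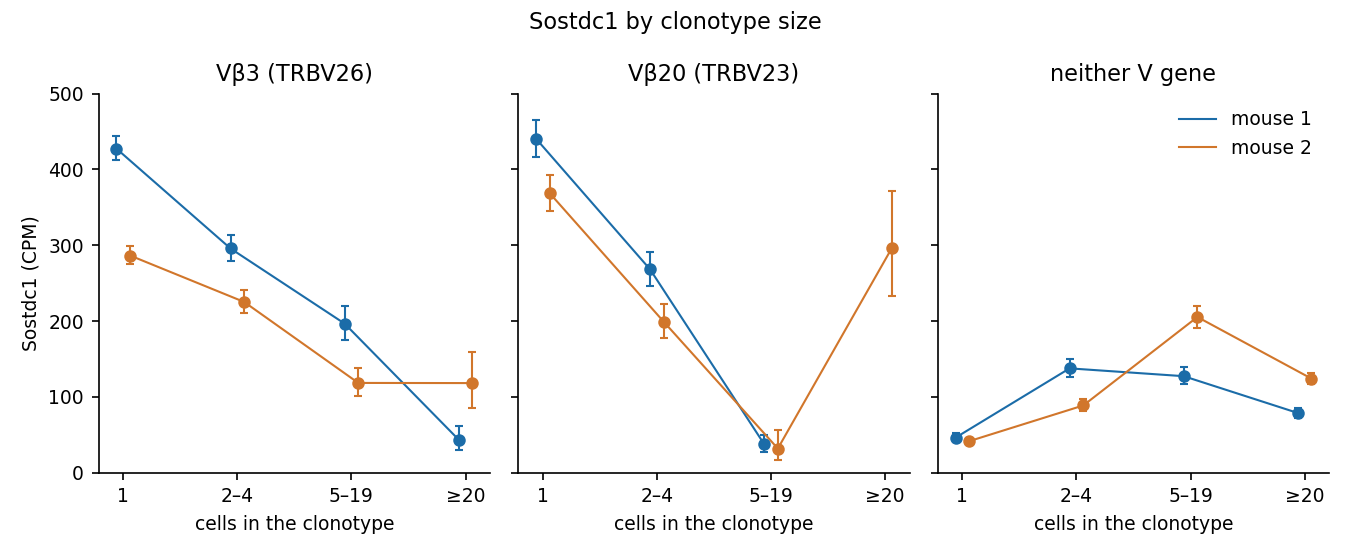
Sostdc1 level (CPM of summed UMIs) by number of cells in the clonotype, for Vβ3 cells, Vβ20 cells and cells with neither; points are the mice with exact 95% Poisson intervals. Cells alone in their clonotype are the highest Vβ3 and Vβ20 cells (286 to 440.5 CPM) and the lowest cells with neither V gene (41.7 and 46.4 CPM).

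The log2 difference of cells in clonotypes of 2 or more minus single cells was -0.71 ± 0.17 in Vβ3, -1.15 ± 0.19 in Vβ20 and 1.44 ± 0.31 in cells with neither (SD, n = 2). Among Foxp3-negative cells alone, Vβ3 averaged 391.5, 303, 206 and 92.0 CPM over the 4 sizes, and cells with neither 60.4, 199, 219 and 104 CPM. Drawing 1 cell per clonotype widened the distance between the classes, to 335 CPM for Vβ3 and 361 CPM for Vβ20, against 61.0 CPM for neither (means over the mice). Clonotypes themselves were split. Of the Vβ3 clonotypes, 32.1% and 29.7% held a positive cell, as did 35.4% and 35.9% of the Vβ20 clonotypes, against 10.4% and 10.6% of those with neither. Of the Vβ3 clonotypes with exactly 2 cells, 20 of 188 in mouse 1 and 22 of 181 in mouse 2 had both cells positive, while 54 and 46 had 1 positive cell.

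The clonotypes that carried the most Sostdc1, or carried little of it in spite of their size, are printed with their CDR3 because they show how unevenly the transcript fell on clones of the same V gene. The first pair are the Vβ3 clonotypes with the most Sostdc1 UMIs in mouse 1 and in mouse 2, the third the largest Vβ3 clonotype without any, the fourth the large Vβ20 clonotype, the fifth the TRBV2 clonotype and the last pair clonotypes of TRBV12-2+TRBV13-2 with TRBJ2-4, 1 from each mouse. All are β-chain CDR3 nucleotides from the deposited contigs (the locus is on chromosome 6, with Trbv26 at 41227505 to 41227993 and Trbv23 at 41216073 to 41216526 in GRCm38), 5′ to 3′, and capitals mark the bases between the start that at least 50% of kept cells with that V gene share and the end that at least 50% of kept cells with that J gene share.
Vβ3 TRBJ1-4 mouse 1: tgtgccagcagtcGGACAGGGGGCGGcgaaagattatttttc
Vβ3 TRBJ2-4 mouse 2: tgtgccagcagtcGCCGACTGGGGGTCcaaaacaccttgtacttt
Vβ3 TRBJ1-4 mouse 1, none: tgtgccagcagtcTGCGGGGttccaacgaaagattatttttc
Vβ20 TRBJ2-3 mouse 2: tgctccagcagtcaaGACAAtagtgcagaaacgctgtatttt
TRBV2 TRBJ2-2 mouse 2: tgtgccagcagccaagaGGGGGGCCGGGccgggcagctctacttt
TRBV12-2+TRBV13-2 TRBJ2-4 mouse 1: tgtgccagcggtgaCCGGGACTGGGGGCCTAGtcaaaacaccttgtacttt
TRBV12-2+TRBV13-2 TRBJ2-4 mouse 2: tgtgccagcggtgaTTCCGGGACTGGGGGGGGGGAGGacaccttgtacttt

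The first Vβ3 clonotype had 10 cells, 4 of them positive, with 120 Sostdc1 UMIs in all. The second had 5 cells, all positive, with 66 UMIs, and all 5 also had an Id3 UMI. The third had 20 cells and no Sostdc1 UMI in 230765 UMIs, and 18 of its cells had a Foxp3 UMI. In the Vβ20 clonotype 15 of 42 cells were positive, with 76 UMIs and no Foxp3-positive cell. The TRBV2 clonotype of mouse 2 was positive in 59 of 103 cells (57.3%, 95% Clopper-Pearson interval 47.2% to 67.0%) and alone supplied 23.4% of the Sostdc1 UMIs of all cells with neither V gene in that mouse.

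The TRBV12-2+TRBV13-2 pair had 118 UMIs with 5 of 5 cells positive in mouse 1 and 234 UMIs with 13 of 15 positive in mouse 2, and neither held a Foxp3-positive cell. Their CDR3s are both 51 bases long. The pair was singled out after its values were seen. Among the largest clonotypes with neither V gene, a TRBV29 clonotype of mouse 2 had 366 cells of which 11 were positive (3.01%), and a TRBV31 clonotype of mouse 1 had 222 cells of which 16 were positive (7.21%). The median CDR3 length was 42 bases in positive and in negative Vβ3 and Vβ20 cells of both mice. Among cells with neither it was 42 bases in both kinds in mouse 1. In mouse 2 it was 45 bases in positive cells, against 42 in negative ones. Each cell counts once here, so large clonotypes weigh more. The TRBV2 clonotype of mouse 2, with 59 positive cells before thinning, has a CDR3 of 45 bases, and the median without it was not computed.

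Cells with a Foxp3 UMI, the marker of regulatory T cells, had little Sostdc1 in every class. Foxp3-positive Vβ3 cells had 40.3 and 20.5 CPM, against 376 and 293 CPM in Foxp3-negative Vβ3 cells. Foxp3-positive Vβ20 cells had 42.9 and 9.81 CPM, against 337.5 and 330 CPM in Foxp3-negative Vβ20 cells. Among cells with neither V gene the values were 11.95 and 6.35 CPM in Foxp3-positive cells, against 117 and 131.5 CPM in Foxp3-negative cells. The Foxp3-positive and Foxp3-negative ranges did not overlap in any class. The log2 differences were -3.53 ± 0.43 for Vβ3, -4.02 ± 1.48 for Vβ20 and -3.83 ± 0.77 for neither (SD, n = 2). With at least 2 Foxp3 UMIs required, the Vβ3 level was 8.21 and 3.13 CPM.

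**Figure D3:**
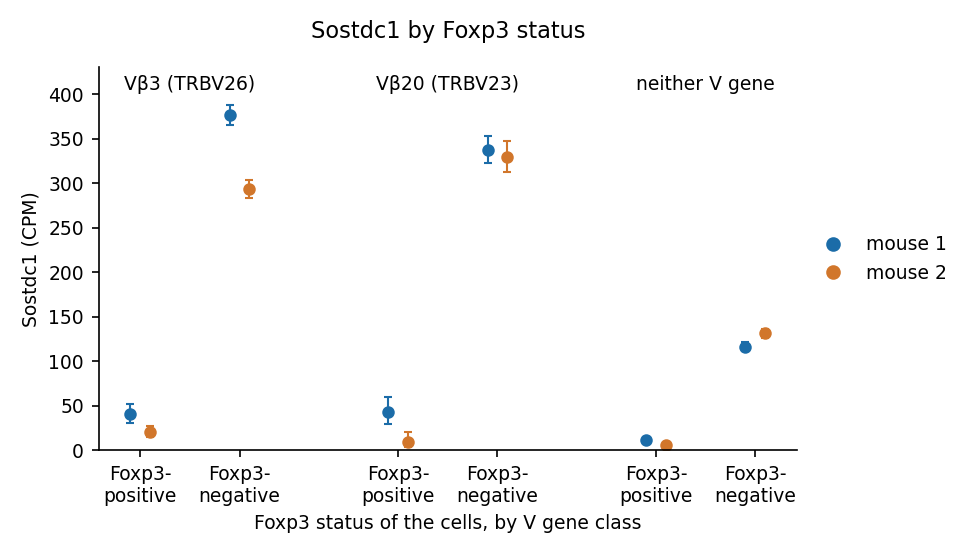
Sostdc1 level (CPM of summed UMIs) in Foxp3-positive and Foxp3-negative cells of each V gene class; points are the mice with exact 95% Poisson intervals. The highest Foxp3-positive value is 42.9 CPM and the lowest Foxp3-negative value is 117 CPM.

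Cells with at least 2 Foxp3 UMIs showed a Sostdc1 UMI in 1.41% to 6.90% of cells over the classes and mice, with median depths of 6404 to 7957 UMIs. Barcodes with no contig and at least 5 UMIs of C1qa, C1qb and C1qc, which macrophages express, showed it in 2 of 17 in mouse 1 and 4 of 24 in mouse 2, with median depths of 7311 and 9753 UMIs. A Cd3e UMI was present in 11 of 17 and 21 of 24 of these barcodes, so they are no clean blank. The class shares were 8.41% to 29.1%. Cells with at least 2 Foxp3 UMIs are part of these classes and were already described as low in Sostdc1, so they are no blank either. How much of each share is background was not tested.

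Barcodes left out for their contigs also had more Sostdc1 with Trbv26 or Trbv23 than with another V gene, in the groups given here. Among those that passed the other filters but had no contig, 670 and 228 barcodes whose leading Trbv transcript was Trbv26 had 274 and 250.1 CPM, and those led by Trbv23 had 298 and 237 CPM, against 138.5 and 115 CPM for those led by another V gene. Between barcodes led by Trbv26 and by Trbv23 the order in each mouse was the reverse of that in kept cells. Among barcodes with 2 β-chain contigs, those with TRBV26 but not TRBV23 had 306 and 233.5 CPM, against 108.5 and 188.5 CPM for those with neither. Those with TRBV23 but not TRBV26 are not given here. Barcodes with 2 contigs had median depths of 6733 to 9796 UMIs in these groups, and whether they are doublets was not tested.

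Across cells, Sostdc1 went with a set of genes headed by Tnfsf8 and Tcf7. Pearson's r on log2 of 1 + UMIs thinned to 3000 was computed over 5402 cells in mouse 1 and 5997 in mouse 2, for 6742 genes seen in at least 5% of cells of each mouse. Cells of a mouse share a library, and no p is given. Tnfsf8, which encodes CD30 ligand, had r of 0.353 and 0.353. Tcf7, which encodes the transcription factor TCF1 that Tfh and memory T cells depend on, had 0.371 and 0.328. Also among the highest 15 were Tbc1d4, Gpr183, Id3, Nsg2, Slamf6, Asap1, mt-Cytb, Tespa1, Dennd2d, Rgs10, mt-Co1 and Ptpn11, with mean r of 0.311 to 0.239. Among them, Gpr183 encodes the oxysterol receptor that guides lymphocytes within lymphoid tissue, and Id3 an inhibitor of E proteins that is also a target of BMP signals. The 8 lowest were Nkg7, Selplg, Ccl5, Crip1, Gimap7, Lgals1, Emp3 and AW112010, with mean r of -0.294 to -0.223. Nkg7 and Ccl5 belong to cytotoxic and Th1 effector cells, and Selplg encodes the selectin ligand PSGL-1.

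**Figure D4:**
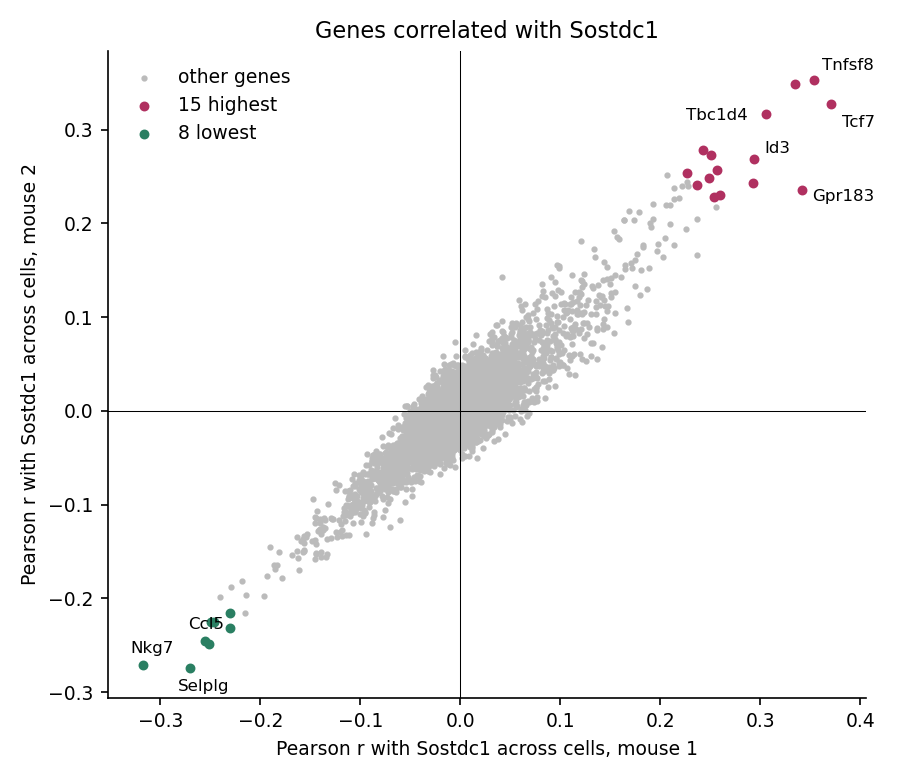
Pearson's r of each of 6742 genes with Sostdc1 across cells thinned to 3000 UMIs, mouse 1 on the x axis and mouse 2 on the y axis; the 15 highest and 8 lowest by the mean of the mice are coloured. The coloured genes run from 0.353 in both mice for Tnfsf8 down to -0.318 and -0.271 for Nkg7. They were chosen by these same values, so their likeness between the mice is partly due to the choice. Some differ in size, such as Gpr183 with 0.342 and 0.235.

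In Sostdc1-positive cells Tcf7 was seen in 88.4% and 85.8% of cells, against 40.5% and 40.3% of negative cells. Tnfsf8 was seen in 69.5% and 69.8% of positive cells, against 22.1% and 23.6% of negative cells. Of the 15 highest genes 11 were also among the highest 15 within Vβ3 cells and 12 within Vβ20 cells, but 7 within cells with neither. Of genes named for their link to helper cells or to Sostdc1 itself, Bcl6 ranked 47, Cxcr5 51, Il21 97, Lef1 183 and Lrp6 1150 of 6742, and Foxp3 6683. The mitochondrial share of UMIs was higher in positive than in negative cells in each class and mouse, with medians of 2.38% and 2.63% in positive Vβ3 cells, against 1.65% and 1.88% in negative Vβ3 cells, and 2 of the 15 are mitochondrial transcripts. Its part in the correlations was not tested.

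Sostdc1-positive cells were then compared with Sostdc1-negative cells of the same V gene class, each cell thinned to 3000 UMIs, with edgeR on sums per mouse. Positive cells had higher Tfh genes and lower effector and proliferation genes in all 3 classes. Most regulatory genes were lower too, but with cells with a Foxp3 UMI left out, genes of that list went both ways. In Vβ3 cells (419 and 385 positive, against 1446 and 1473 negative), 1840 of 10158 genes passed an adjusted p of 0.05, or 18.1%, 7.70% higher and 10.4% lower. In Vβ20 cells (194 and 174 positive, against 684 and 515 negative) it was 829 of 8631 genes, or 9.60%, 3.60% higher and 6.00% lower. In cells with neither (171 and 259 positive, against 2488 and 3191 negative) it was 1507 of 10854 genes, or 13.9%, 5.98% higher and 7.90% lower. In a fit that ignored the mouse, 993 genes passed in Vβ3 and 513 in Vβ20, and by DESeq2 414, 176 and 495 passed in the 3 classes. The p-values rest on 2 mice, with 1 residual degree of freedom for a gene and 20.5 to 60.5 prior degrees of freedom that edgeR drew from the spread of the other genes, so they lean mostly on that pooled spread. The gene lists below were put together with earlier results of these data known, and their counts are to be read against these shares.

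Of the Tfh list, 14 of 19 tested members rose and 1 fell in positive Vβ3 cells, 14 of 19 rose and 1 fell in positive Vβ20 cells, and 18 of 20 rose in positive cells with neither. The medians were 0.84, 0.83 and 1.55 on the log2 scale, against 0.0075, -0.00032 and -0.0072 over all genes tested. Tnfsf8 and Slamf6 are among the highest 15 correlates; without them 12 of 17, 12 of 17 and 16 of 18 rose. By DESeq2 11, 3 and 17 of the list rose in the 3 classes. Il4, a cytokine of Tfh and Th2 cells, had 66.8 and 38.1 CPM in positive Vβ3 cells against 8.99 and 11.99 CPM in negative ones, and rose by 2.31 ± 0.22 (SE, edgeR adjusted p = 1.92e-13). It rose by 4.12 ± 0.24 in positive cells with neither, with 81.9 and 82.4 CPM against 4.42 and 4.60 CPM (edgeR adjusted p = 7.51e-12). Bcl6, the factor that fixes the Tfh fate, had 89.9 and 95.2 CPM in positive Vβ3 cells against 41.7 and 36.7 CPM in negative ones, a rise of 1.23 ± 0.13 (SE, edgeR adjusted p = 2.08e-11). Cxcr5, the receptor that draws cells into the follicle, rose by 0.80 ± 0.10 in Vβ3 (edgeR adjusted p = 5.57e-09) and by 0.94 ± 0.15 in Vβ20 (edgeR adjusted p = 8.86e-05). Tox2, a Tfh transcription factor, rose by 1.09 ± 0.086, 1.28 ± 0.13 and 1.94 ± 0.13 in positive Vβ3, Vβ20 and other cells (edgeR adjusted p = 1.27e-16, 1.06e-07 and 4.37e-11).

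Il21, the cytokine most tied to Tfh help, did not pass in either named class. It had 138 and 124 CPM in positive Vβ3 cells against 129.8 and 98.0 CPM in negative ones (0.19 ± 0.10 on the log2 scale, edgeR adjusted p = 0.205), and in Vβ20 cells the difference was 0.18 ± 0.17 (edgeR adjusted p = 0.625). In positive cells with neither V gene it rose by 1.84 ± 0.14, with 131 and 169 CPM against 35.5 and 44.8 CPM (edgeR adjusted p = 7.59e-10). Whether the difference itself differs between the classes was not tested. The member that fell in positive Vβ3 and Vβ20 cells was Maf, a factor that drives Il10 and Il21.

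Most of the Th1 and cytotoxic list fell: 20 of 20 tested members in positive Vβ3 cells, 16 of 17 in Vβ20 and 17 of 20 in cells with neither, with medians of -3.46, -3.33 and -1.59 on the log2 scale. Ccl5 and Nkg7 are among the 8 lowest correlates; without them 18 of 18, 14 of 15 and 15 of 18 fell. The Vβ20 median is -3.15 when Prf1, with no UMI in positive cells, is set to the bound that 3 UMIs over the group allow. Ccl4, a chemokine of effector cells, had 19.9 and 8.66 CPM in positive Vβ3 cells against 1107 and 768 CPM in negative ones (fell by 6.03 ± 0.12 on the log2 scale, edgeR adjusted p = 1.99e-48). Ccl5 had 417 and 348 CPM in positive Vβ3 cells, against 11021 and 7824 CPM in negative ones. Nkg7 had 74.8 and 107 CPM in positive Vβ3 cells, against 1315 and 1171 CPM in negative ones. Gzmk, a granzyme, fell by 3.33 ± 0.16 in positive Vβ20 cells (edgeR adjusted p = 1.52e-13) and by 1.87 ± 0.11 in positive cells with neither (edgeR adjusted p = 4.56e-12).

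**Figure D5:**
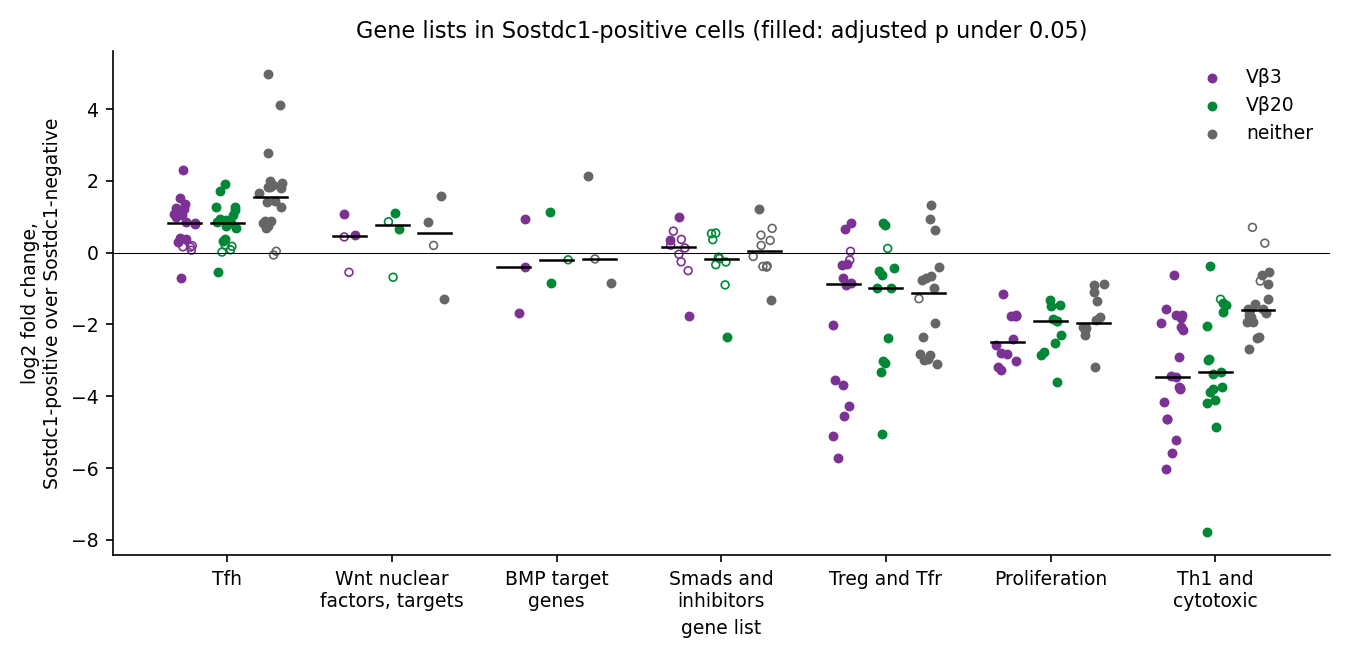
Log2 fold change in Sostdc1-positive over Sostdc1-negative cells of the tested members of 7 gene lists, for Vβ3 cells, Vβ20 cells and cells with neither; filled points passed an adjusted p of 0.05 in edgeR and black bars are medians. Tfh medians are above 0 and Th1, regulatory and proliferation medians below 0 in all 3 classes; the lowest Vβ20 point is Prf1, which had no UMI in positive cells, so its fitted change is no bound.

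Proliferation genes fell in positive cells, 12 of 12 in Vβ3, 11 of 11 in Vβ20 and 12 of 12 in cells with neither, against 8, 3 and 8 of them by DESeq2. Mki67, a marker of dividing cells, had 12.7 and 9.52 CPM in positive Vβ3 cells against 101 and 52.3 CPM in negative ones (fell by 2.79 ± 0.21 on the log2 scale, edgeR adjusted p = 1.59e-17). Of the regulatory list 12 of 16 fell in Vβ3, 10 of 13 in Vβ20 and 12 of 16 in cells with neither, against 7, 4 and 9 by DESeq2. Without cells with a Foxp3 UMI, a choice made on a gene of the list itself, the list went both ways. In that setting 4 of 11 fell and 3 rose in Vβ3, and 3 of 9 fell and 2 rose in Vβ20. In cells with neither, 5 of 13 fell and 6 rose. The medians were then -0.098, 0.0032 and -0.16, against -0.87, -0.98 and -1.13 with all cells. Foxp3 itself had 5 and 1 UMIs in positive Vβ3 cells against 316 and 451 UMIs in negative ones. Against that direction, Izumo1r (folate receptor 4) rose by 0.82 ± 0.048 in positive Vβ3 cells (edgeR adjusted p = 2.91e-22), and it and Nrp1 (neuropilin 1) rose in all 3 classes. Both are also found on activated or anergic helper cells. Of the naive list Klf2 fell in each class, while Foxp1 rose in each class and Ccr7 rose in positive Vβ3 and Vβ20 cells.

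The pathways that Sostdc1 acts on were thinly expressed. Of 61 genes in the BMP lists, 18 were high enough to test in positive against negative Vβ3 cells, 3 of them rose and 3 fell, and in Vβ20 2 of 14 rose and 2 fell and in cells with neither 2 of 20 rose and 3 fell. Id3, one of the highest correlates, is among those that rose. Without it 2 of 17, 1 of 13 and 1 of 19 rose, and 3, 2 and 3 fell. In each class that share called, from few genes, was above the 18.1%, 9.60% and 13.9% over all genes tested. Among ligands, Bmp7 had 72.2 and 49.8 CPM in positive Vβ20 cells against 32.6 and 29.8 CPM in negative ones (rose by 0.97 ± 0.23, edgeR adjusted p = 0.00589). In Vβ3 it had 54.9 and 58.9 CPM against 45.6 and 44.4 CPM and did not pass (0.33 ± 0.15, edgeR adjusted p = 0.123). Among receptors, Bmpr2 was tested in Vβ3 with 1.59 and 8.66 CPM in positive cells against 6.22 and 5.66 CPM in negative ones and did not pass (edgeR adjusted p = 0.815), and Bmpr1a was too low to test in these comparisons.

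Among transducers, Smad7, the inhibitory Smad of the TGF-β and BMP pathways, fell in every class: by 1.75 ± 0.26 in Vβ3 (8.75 and 11.3 CPM in positive against 33.0 and 34.2 CPM in negative cells, edgeR adjusted p = 1.82e-07), by 2.36 ± 0.47 in Vβ20 (edgeR adjusted p = 0.00114) and by 1.31 ± 0.23 in cells with neither (edgeR adjusted p = 1.97e-04). Smad1, which carries BMP signals, rose by 1.00 ± 0.28 in positive Vβ3 cells (edgeR adjusted p = 0.00577) and by 1.22 ± 0.35 in positive cells with neither (edgeR adjusted p = 0.0200). Among targets, Id3, one of the highest correlates, had 595 and 493 CPM in positive Vβ3 cells against 286 and 281 CPM in negative ones, while Id2 had 280.0 and 248 CPM against 328 and 371 CPM and fell by 0.40 ± 0.075 (edgeR adjusted p = 2.03e-05). Runx2, a transcription factor downstream of BMPs in bone, fell by 1.69 ± 0.19 in Vβ3 (edgeR adjusted p = 9.62e-11).

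Of 72 genes in the Wnt lists 24 were tested in Vβ3, 2 rose and 1 fell, in Vβ20 2 of 22 rose, and in cells with neither 6 of 26 rose and 2 fell. Without Tcf7, chosen as a correlate, 1, 1 and 5 rose, and in Vβ3 and Vβ20 the share of Wnt genes called was below that over all genes tested. In cells with neither, where 5 of 25 then rose and 2 fell, it was above the 13.9% over all genes tested. Lrp6, one of the Lrp co-receptors, had 31.0 and 27.7 CPM in positive Vβ3 cells against 21.7 and 21.1 CPM in negative ones and did not pass (0.46 ± 0.21, edgeR adjusted p = 0.136). Lrp4 and Lrp5 were nearly absent. Lrp4 had a UMI in 0 and 1 positive Vβ3 cells and in 1 and 3 negative ones. Lrp5 had a UMI in 1 and 0 positive Vβ3 cells and in 0 and 2 negative ones. The nuclear factors Tcf7 and Lef1 were higher in positive cells: Tcf7, a top correlate, had 1196 and 1153 CPM in positive Vβ3 cells against 509.5 and 614 CPM, and Lef1 rose by 0.50 ± 0.077 in Vβ3 (edgeR adjusted p = 3.72e-07) and by 0.67 ± 0.13 in Vβ20 (edgeR adjusted p = 7.26e-04). In cells with neither, Wls, the carrier that Wnt proteins need for secretion, rose by 0.81 ± 0.15 (edgeR adjusted p = 3.58e-04), and Bcl9, a cofactor of β-catenin, by 1.57 ± 0.40 (edgeR adjusted p = 0.00888). Kremen2, a receptor of Wnt inhibitors, fell by 1.73 ± 0.32 in positive Vβ3 cells (edgeR adjusted p = 2.80e-05).

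The same lists were read between V gene classes, all kept cells summed per mouse. Vβ3 cells differed from cells with neither in 3129 of 12739 genes by edgeR, or 24.6%, 11.1% higher and 13.5% lower. Vβ20 cells differed from the same cells with neither in 1746 of 12405 genes, or 14.1%, 6.42% higher and 7.66% lower. In a fit that ignored the mouse, 568 and 336 genes passed, and by DESeq2 888 and 357. These 2 comparisons share the cells with neither V gene, so their likeness is no second observation. Of 20 Tfh genes 17 rose and 1 fell (Tox) in Vβ3, and 17 rose in Vβ20, against 11 and 12 in the fit that ignored the mouse. The lists hold correlates of Sostdc1, which was chosen for its level in these classes; without them 15 of 18 Tfh genes rose in each. Il21 had 120.4 and 96.0 CPM in Vβ3 cells against 37.8 and 44.7 CPM in cells with neither, a rise of 1.38 ± 0.083 (SE, edgeR adjusted p = 2.08e-11), and rose by 1.59 ± 0.083 in Vβ20 (edgeR adjusted p = 7.11e-15). Cxcr5 had 87.8 and 86.3 CPM in Vβ3 cells against 39.1 and 31.4 CPM, a rise of 1.32 ± 0.065 (edgeR adjusted p = 6.35e-13). Of the early receptor-signal genes, 6 of 12 rose and 2 fell in Vβ3, and 8 of 12 rose and 2 fell in Vβ20, against 2 and 2 risen when the mouse was ignored and 5 and 2 by DESeq2. With 1 cell per clonotype 6 rose and 4 fell in Vβ3, with a median of 0.074, against 0.34 with all cells. Egr2 rose by 1.18 ± 0.12 in Vβ20 (edgeR adjusted p = 2.17e-08).

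Of 20 Th1 and cytotoxic genes 16 fell and 2 rose in Vβ3, and 14 fell and 2 rose in Vβ20; without Ccl5 and Nkg7 14 and 12 of 18 fell. Gzma (granzyme A) had 8.37 and 12.8 CPM in Vβ3 cells against 43.0 and 52.5 CPM in cells with neither (fell by 2.17 ± 0.089, edgeR adjusted p = 3.20e-14). This list moved with the way clonotypes were counted: with 1 cell per clonotype 8 rose and 5 fell in Vβ3 and its median turned to 0.18, against -0.80 with all cells, and in Vβ20 7 rose and 6 fell with a median of 0.20, against -0.80. Without clonotypes of 20 or more cells 4 rose and 11 fell in Vβ3, and 5 rose and 7 fell in Vβ20, and in the fit that ignored the mouse 8 and 7 of the 20 fell, and by DESeq2 13 and 9. The Tfh count was 19 of 20 in both classes with 1 cell per clonotype. Of 12 proliferation genes 12 fell in Vβ3 and 11 in Vβ20, against 0 in both when the mouse was ignored and 9 and 3 by DESeq2. Of 16 regulatory genes 8 fell and 3 rose in each, against 2 and 5 lower when the mouse was ignored and 4 lower in both by DESeq2. Without cells with a Foxp3 UMI the direction turned: 7 of 15 rose and 5 fell in Vβ3, with a median of 0.14 against -0.18 with all cells, and 5 of 14 rose and 3 fell in Vβ20, with a median of 0.23 against -0.21.

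In the BMP lists 5 of 23 tested genes rose and 5 fell in Vβ3, and 5 of 22 rose and 3 fell in Vβ20; without Id3 4 of 22 and 4 of 21 rose. Bmp7 had 41.3 and 42.9 CPM in Vβ3 cells and 37.3 and 35.6 CPM in Vβ20 cells, against 19.8 and 18.2 CPM in cells with neither, a rise of 1.16 ± 0.075 in Vβ3 (edgeR adjusted p = 6.95e-11) and of 0.95 ± 0.11 in Vβ20 (edgeR adjusted p = 8.32e-08). Id3 had 317 and 293 CPM in Vβ3 cells against 107 and 89.9 CPM in cells with neither, given with no test because it was chosen by its correlation with Sostdc1, while Id2 was 309.8 and 323 CPM against 286 and 312 CPM and did not pass (edgeR adjusted p = 0.139). Smad7 fell by 0.79 ± 0.068 in Vβ3 (edgeR adjusted p = 8.50e-09) and by 1.08 ± 0.11 in Vβ20 (edgeR adjusted p = 4.62e-09). The receptor Acvrl1 fell in Vβ3, with 4 and 12 UMIs against 63 and 111 UMIs in cells with neither (edgeR adjusted p = 1.43e-06).

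In the Wnt lists 8 of 30 tested genes rose and 6 fell in Vβ3, and 6 of 28 rose and 3 fell in Vβ20; without Tcf7 7 of 29 and 5 of 27 rose. Tcf7 had 574 and 644 CPM in Vβ3 cells against 254 and 279.5 CPM in cells with neither, also given with no test. Axin2, a feedback target of Wnt signals, rose by 0.45 ± 0.092 in Vβ3 (edgeR adjusted p = 6.51e-04). The related ubiquitin ligases Rnf43 and Znrf3, which remove Frizzled receptors from the surface, parted: Rnf43 rose by 0.61 ± 0.086 (edgeR adjusted p = 9.01e-06) and Znrf3 fell by 0.95 ± 0.13 (edgeR adjusted p = 9.65e-06). Lrp6 had 23.9 and 20.6 CPM in Vβ3 cells against 23.1 and 20.9 CPM in cells with neither and did not pass (edgeR adjusted p = 0.883).

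Vβ3 and Vβ20 cells were close to each other: 39 of 11821 genes passed by edgeR, or 0.330%, 0.0761% higher and 0.254% lower in Vβ3. None of the 21 tested BMP genes, 27 Wnt genes or 20 Tfh genes was among them, and by DESeq2 2 genes in all passed. At an unadjusted p under 0.05 in edgeR it was 3, 3 and 5 of them. The share of all genes at that cut-off in the same fit is not given here, so these counts have no background. With 1 cell per clonotype 3 of the 20 Tfh genes passed as lower in Vβ3, and 1 did without cells with a Foxp3 UMI and 1 without cells above 3 times the median UMIs. In a fit that ignored the mouse, 0 genes passed (159 at an unadjusted p under 0.05). A difference may still have been missed, since Il21 differed by -0.20 ± 0.063 (SE) and Bmp7 by 0.20 ± 0.087. Of the early receptor-signal genes 4 of 12 fell in Vβ3 against Vβ20 (Nr4a1, Nr4a2, Nr4a3 and Egr2), against 0 by DESeq2 and 0 when the mouse was ignored, with Egr2 lower by 0.50 ± 0.086 on the log2 scale (edgeR adjusted p = 8.13e-04).

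Id3 overlapped with Sostdc1 but did not cover it. A UMI of both was found in 674 cells of mouse 1 and 651 of mouse 2, which was 66.7% and 63.0% of Sostdc1-positive cells and 35.8% and 32.8% of Id3-positive cells. Id3-positive cells had 502 and 380 Sostdc1 CPM, against 70.8 and 67.5 CPM in Id3-negative cells. Within cells that had an Id3 UMI after thinning, a comparison added after the data were seen, there were 265 and 233 positive, against 413 and 483 negative Vβ3 cells, 125 and 100 positive, against 173 and 142 negative Vβ20 cells, and 76 and 106 positive, against 311 and 343 negative cells with neither. By edgeR 151 of 8439 genes passed in Vβ3, or 1.79% (0.628% higher), 41 of 5988 in Vβ20, or 0.685% (6 of them higher), and 513 of 7488 in cells with neither, or 6.85% (2.79% higher). In the Tfh list 7 of 19 tested genes rose in Sostdc1-positive Vβ3 cells, 0 of 18 passed in Vβ20 by edgeR, and 14 of 18 rose in cells with neither. At an unadjusted p under 0.05 it was 3 of the 18 in Vβ20, and the share of all genes at that cut-off is not given here. The Tfh medians were 0.36, 0.23 and 1.07, against 0.84, 0.83 and 1.55 over all thinned cells, which were more in number. Of the Th1 and cytotoxic list, which holds the correlates Ccl5 and Nkg7, 9 of 13 fell in Vβ3, 4 of 7 in Vβ20 and 12 of 15 in cells with neither. In each class 0 rose, and the medians were -1.94, -2.095 and -2.88.

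Markers of other cell types were low and moved with the classes in places. The 6 B cell markers summed to 114 and 141 CPM in Vβ3 cells and 100.2 and 145 CPM in Vβ20 cells, against 211 and 225 CPM in cells with neither. The erythroid markers summed to 6.24 and 68.0 CPM in Vβ3 cells and 4.64 and 334 CPM in Vβ20 cells, against 9.69 and 10.6 CPM in cells with neither, so the high values were those of mouse 2. The macrophage markers summed to 6.36 and 3.46 CPM in Sostdc1-positive Vβ3 cells, against 36.0 and 31.9 CPM in negative ones. The 3 γδ markers summed to 2.45 and 0.66 CPM in Vβ3 cells, against 40.1 and 7.16 CPM in cells with neither. The 3 natural killer T cell markers summed to 6.08 and 8.48 CPM in Vβ3 cells and 4.80 and 8.69 CPM in Vβ20 cells, against 1.46 and 2.01 CPM in cells with neither. Nearly all of that sum in Vβ3 cells was Klrb1c, with 76 and 115 UMIs in Vβ3 cells against 20 and 37 in cells with neither, while the factor Zbtb16 had 1 and 0 UMIs in Vβ3 cells, against 9 and 16 in cells with neither. In Sostdc1-positive Vβ3 cells the sum was 9.55 and 21.7 CPM, against 5.30 and 6.56 CPM in negative ones. Their part in the results was not tested.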

How the data were processed

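Single-cell UMI counts per gene and receptor contigs were deposited by the authors for 2 hosts; they were made with Cell Ranger 7.0.1 on builds GRCm38 and mm10, per the submitters' processing notes. The deposited counts are whole numbers and were not normalized. Kept cells had at least 500 genes, at most 10% mitochondrial UMIs and 1 TRB contig; no doublet caller was run. Levels are CPM of sums per mouse, with exact Poisson intervals for levels and Clopper-Pearson intervals for shares (95%), which cover counting error only. Sums per mouse were compared with edgeR 4.0.16 in R 4.3.3 (quasi-likelihood test, TMM, filterByExpr, Benjamini-Hochberg over all tested genes, threshold 0.05), leaving out 260 T cell receptor segment genes and keeping the mouse as a block, because the compared cells lie in the same libraries; 1 residual degree of freedom remains. Comparisons by Sostdc1 used cells thinned to 3000 UMIs. DESeq2 1.42.0 and other settings were alternatives. The edgeR step was tested on simulated data. Named genes were Sostdc1, its 15 highest and 8 lowest correlates, a fixed set of helper, BMP and Wnt genes, and the 3 members with the smallest p in each list; some of these are not reported here. Sostdc1 and the gene lists were chosen with earlier results of these data known.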

Additional observations from a re-analysis of the deposited data

Results flagged for a closer look

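Sostdc1 in cells of clonotypes of 2 or more, relative to cells alone in their clonotype, went one way in Vβ3 and Vβ20 cells and the other way in cells with neither V gene. The mean log2 ratio of CPM was -0.71 in Vβ3 cells (-0.82 in mouse 1 and -0.59 in mouse 2) and -1.15 in Vβ20 cells (-1.28 and -1.02), against 1.44 in cells with neither (1.22 and 1.66). Both mice moved alike within each class. The difference between the classes was not tested.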

How the results depend on the processing

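With the mouse as a replicate block, 3129, 1746 and 39 genes passed by edgeR for Vβ3 against neither, Vβ20 against neither and Vβ3 against Vβ20; without the block 568, 336 and 0 passed, and in Sostdc1-positive against negative Vβ3 and Vβ20 cells 993 and 513. By DESeq2 888, 357 and 2 genes passed between V gene classes, and 414, 176 and 495 by Sostdc1 in Vβ3, Vβ20 and other cells. Vβ3 against Vβ20 gave 72 genes with no filter on low counts, 91 with 1 cell per clonotype, 93 without cells with a Foxp3 UMI and 91 without cells above 3 times the median UMIs. Thinning to 2000 UMIs gave 1180 genes in Vβ3, and among cells with an Id3 UMI, chosen after seeing the data, 151, 41 and 513 genes passed.

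The Vβ3 over Vβ20 log2 ratio of Sostdc1 was -0.013, from -0.19 to 0.17 with a mouse left out, and 0.034 without clonotypes of 20 or more cells. Leaving out a mouse gave 1.27 to 1.90 for Vβ3 over neither, 1.46 to 1.74 for Vβ20 over neither, -0.82 to -0.59, -1.28 to -1.02 and 1.22 to 1.66 for expanded over single cells in Vβ3, Vβ20 and other cells, and -3.84 to -3.22, -5.07 to -2.98 and -4.37 to -3.29 for Foxp3-positive over negative cells. With 1 cell per clonotype the ratios were 2.45 for Vβ3 and 2.58 for Vβ20 over neither, and -0.49 and -0.85 for expanded over single Vβ3 and Vβ20 cells. As shares of thinned cells, expanded over single gave -0.44 in Vβ3 and -0.93 in Vβ20, and Foxp3-positive over negative -2.89 in other cells. With at least 2 Foxp3 UMIs the Foxp3 ratios were -6.03, -6.65 and -4.97. Of the 15 highest correlates 7 recurred in cells with neither, 12 and 14 in single mice, and of the 8 lowest 8 and 7.

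Among single genes, all of them uncalled under the setting, the log2 change turned to -0.021 for Id2 and -0.0068 for Lrp6 (Vβ3 against neither) without Foxp3 cells, -0.054 for Lrp6 with 1 cell per clonotype and -0.014 without large clonotypes. By Sostdc1 it turned to -0.036 for Il21 in Vβ20 and 0.40 for Bmpr2 in Vβ3 at 2000 UMIs, -0.0195 for Il21 in Vβ3 without Foxp3 cells, and, among cells with an Id3 UMI, -0.022 for Il21 in Vβ20, -0.078 for Bmp7 and -0.012 for Lef1 in Vβ3. Of the other single-gene values 412 kept direction and side of the threshold, 33 lost it and 5 gained it. The causes were not tested.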
